A study of Mus musculus with 6 samples.

Results

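Ccr1, Ccr2, Ccrl2, Cx3cr1, Cxcr2, Cxcr4 and Cmklr1 encode surface receptors through which monocytes, macrophages and neutrophils sense chemokines and chemerin. They were followed in bone marrow monocytes and macrophages of mice with and without a human B cell leukaemia. The 7 genes were taken by symbol from the platform annotation of an Illumina mouse bead array, out of 19057 named genes, and were represented by 9 probes, 2 each for Ccr2 and Cxcr2 and 1 for each of the others. At least 1 probe was bright enough to be tested for 5 of the 7 genes, among 9089 tested genes in all. The members were named from what the genes encode, and earlier results of these data were known when the set was chosen.

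All 6 mice were BALB/c animals of genotype Rag2-/-γc-/-, 11 weeks old, and hence without T, B and NK cells of their own. The 3 control mice, A, B and C, had no treatment. The 3 mice D, E and F had been injected intravenously with MEC1 cells, an established human line derived from chronic lymphocytic leukaemia, and both groups were taken on day 21, an early stage of the disease. Murine monocytes and macrophages were purified from marrow with magnetic beads, and RNA of each mouse was read on 1 array, so n is 3 mice per group throughout. The model is limited to 1 leukaemic line, to hosts that lack lymphocytes, and to controls that the labels do not describe as sham-injected.

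Chemokine receptors are G protein-coupled receptors that steer migrating leukocytes along gradients of their ligands. In marrow, Cxcr4 holds haematopoietic and myeloid cells near stromal cells that make Cxcl12, Ccr2 is needed for classical monocytes to leave for the blood, and Cxcr2 promotes the release of neutrophils. Cx3cr1 marks and supports nonclassical monocytes, Ccr1 responds to inflammatory CC chemokines, Cmklr1 signals in response to chemerin, and Ccrl2 is an atypical receptor that binds chemerin without the usual G protein response.

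On each array between 15545 and 16976 of the 45281 probes were detected, meaning a detection p-value under 0.05 against the negative controls of that array. Median raw intensity was 114 to 131 in control mice and 70.7 to 87.6 in MEC1 mice, so raw signals were compared between groups only after normalization. Of 13 monocyte and macrophage marker genes 10 had a named probe, and all 10 were tested. Their mean log2 intensity was 10.22 to 10.33 in control mice and 10.10 to 10.24 in MEC1 mice, which overlap. Their summed normalized intensity, in which the brightest genes weigh most, was 65323 to 68940 in control mice. In MEC1 mice the sum was 54504 to 57019, below every control mouse. Of the 10, 7 had a log2 change below 0 and 3 above, with a median of -0.20, and 2 were called, in opposite directions. Adgre1, with the next smallest p, was not called, at -0.69 ± 0.24 (SE, limma adjusted p = 0.169) and with overlapping groups. Its other tested probes gave -1.39, undetected in mouse D, and -0.38. At both, every MEC1 mouse lay below every control mouse, as in 13.3% of tested probes. Fcgr1, a high-affinity IgG receptor, rose by 1.77 ± 0.25 (SE; limma adjusted p = 0.0170), a call kept under 11 of 15 alternatives and lost without each of the control mice and with chip position as a covariate (adjusted p up to 0.207). Lyz2, the lysozyme of myeloid cells, fell by 0.45 ± 0.09 (SE; limma adjusted p = 0.0491) at the probe standing for it, a call kept under 3 of 15 alternatives (adjusted p from 0.0190 to 0.234), while its other tested probes gave 0.08 and -0.26. Genes listed as markers of other marrow cells were bright too, though sums over lists of different genes do not measure shares of cells. The 13 tested neutrophil markers summed to 165213 to 186358 in control mice and 185024 to 190679 in MEC1 mice. The 8 tested erythroid markers summed to 80529 to 106184 and 37425 to 71570, and the 4 tested eosinophil markers to 50349 to 56603 and 53759 to 63095. In bulk RNA of this kind, fewer cells of a type and less RNA per cell cannot be told apart. The control arrays lay at chip positions 1 to 3 and the MEC1 arrays at 4 to 6, so position and group cannot be told apart except through a fitted slope.

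No receptor passed the test between MEC1 and control mice. Of the 5 tested probes 0 were called by limma at an adjusted p under 0.05, against 1.54% of all 16460 tested probes, and 0.668% of them were called lower. All 5 had a log2 change below 0, as had 52.0% of tested probes. Their median was -0.38, beside 0.00 for all tested genes. At an unadjusted p under 0.05, Ccrl2 and Cx3cr1 were lower, 2 of 5, against 9.67% of tested probes. The same 2 receptors had groups that did not overlap, with every MEC1 mouse below every control mouse, as had 13.3% of tested probes. Only probes detected in at least 3 mice could be tested, so these counts do not cover the whole set of 7 genes. The summed erythroid markers, of which 8 of 8 had a log2 change below 0 with a median of -0.98, also lay lower in every MEC1 mouse than in every control mouse. Their part in the receptor values was not tested.

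**Figure D1:**
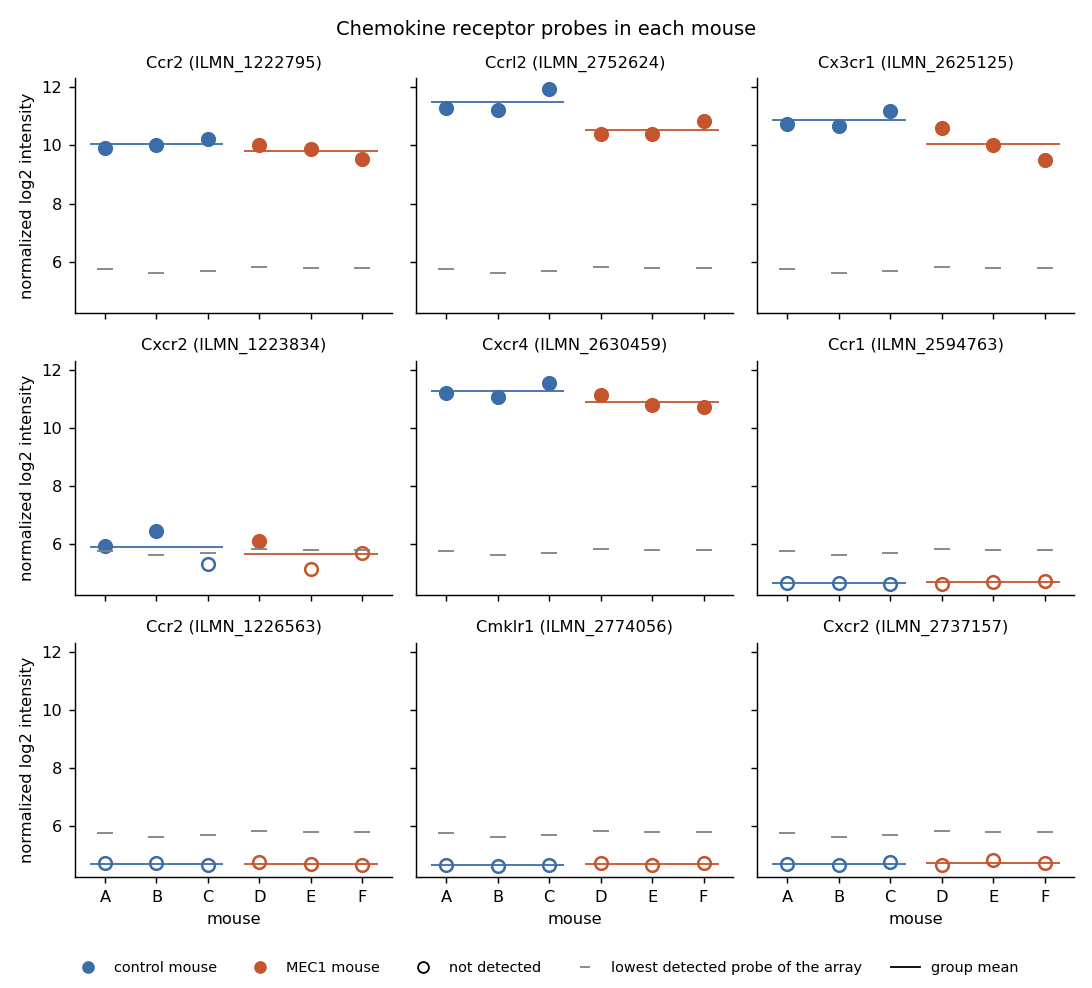
Normalized log2 intensity (vertical axis) of the 9 probes in mice A to C (control) and D to F (MEC1), along the horizontal axis. Filled points are detected and open points not detected, horizontal lines are group means and grey dashes mark the lowest detected probe of each array; Ccrl2 and Cx3cr1 separate the groups, while 4 probes lie below the dashes in every mouse.

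The receptors of monocytes and tissue macrophages are described first. Ccrl2, the atypical chemerin-binding receptor, had the lowest log2 change of the 5. The raw signals of control mice A, B and C were 3445, 3305 and 4927. Those of MEC1 mice D, E and F were 1241, 641 and 1403. After normalization its log2 intensity was 11.29, 11.22 and 11.94 in the control mice and 10.40, 10.38 and 10.83 in the MEC1 mice. Control mouse C stood highest, and the gap between the groups ran from 10.83 in mouse F to 11.22 in mouse B. The group means were 11.48 ± 0.39 (SD, n = 3) and 10.54 ± 0.26 (SD, n = 3). The log2 change was -0.95 ± 0.22 (SE), or 1.93-fold lower, with a 95% interval from -1.45 to -0.45 (limma adjusted p = 0.0813). Over 15 alternatives the adjusted p ran from 0.00845 to 0.278; it passed without MEC1 mouse D (log2 change -0.88, adjusted p = 0.0489) and with median scaling in place of quantile normalization (-1.45, adjusted p = 0.00845), under which all tested probes had a median of -0.48. Without mouse D 3.13% of all tested probes were called lower, and under median scaling 12.0%, against 0.668% as reported. With chip position as a covariate the change of Ccrl2 was -1.76 (limma adjusted p = 0.204).

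Cx3cr1, the receptor for the membrane-bound chemokine Cx3cl1, gave raw signals of 2400, 2292 and 2987 in controls A, B and C and of 1438, 514 and 588 in mice D, E and F. Its normalized log2 intensity was 10.75, 10.68 and 11.18 in the control mice and 10.61, 10.02 and 9.50 in the MEC1 mice. Mouse D lay close under the lowest control mouse, and mouse F was far lower, so the MEC1 mice spread over a wider range than the controls (10.04 ± 0.56 against 10.87 ± 0.27, SD, n = 3 each). The log2 change was -0.83 ± 0.28 (SE), with a 95% interval from -1.45 to -0.20 (limma adjusted p = 0.165). Over 15 alternatives the adjusted p ran from 0.0147 to 0.817; without mouse D the change was -1.10 and passed (limma adjusted p = 0.0147), under median scaling it was -1.34 and passed (adjusted p = 0.0237), without mouse F it was -0.55 (adjusted p = 0.210), and with chip position as a covariate -0.32 (adjusted p = 0.817). The 2 settings under which Cx3cr1 passed also called more of all tested probes lower, 3.13% and 12.0% against 0.668% as reported. Of 8 other genes of nonclassical monocytes 5 were tested, 3 of them with a log2 change below 0 and 2 above, none was called, and their median was -0.06. Their summed normalized intensity was 1366 to 1835 in control mice and 1300 to 2045 in MEC1 mice, with Nr4a1, Cd36 and Fabp4 detected on no array. Treml4, a receptor of nonclassical monocytes, gave a log2 change of 1.47 ± 0.38 (SE; limma adjusted p = 0.104) with every MEC1 mouse above every control mouse. The raw signals of that Treml4 probe were 184, 193 and 171 in controls A, B and C and 308, 157 and 147 in mice D, E and F. Before normalization mice E and F thus lay below every control mouse. The control signals were close to the lowest detected on those arrays, 140 to 172. Its other tested probe, detected in 1 control mouse and 3 MEC1 mice, gave 1.37.

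The promoters of these 2 receptors, whose groups were separated, and of Cmklr1, whose transcript was not detected, are shown for comparison, each from 250 bases before to 50 bases after the RefSeq transcription start in build GRCm38.p6, written 5′ to 3′ in the direction of transcription. Capitals mark matches, on either strand, to GAGGAA, a core of sites for the myeloid factor PU.1, and to ACGTG, a core of hypoxia response elements. The sequence is that of the C57BL/6J reference, not of the BALB/c mice.
Ccrl2 promoter, chr9:111057469-111057768 (- strand): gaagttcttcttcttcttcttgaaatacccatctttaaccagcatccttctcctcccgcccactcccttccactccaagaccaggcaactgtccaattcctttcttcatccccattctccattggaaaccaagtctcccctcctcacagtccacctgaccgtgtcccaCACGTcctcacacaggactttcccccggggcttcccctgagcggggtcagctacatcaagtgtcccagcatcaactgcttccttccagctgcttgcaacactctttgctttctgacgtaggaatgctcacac
Cx3cr1 promoter, chr9:120068247-120068546 (- strand): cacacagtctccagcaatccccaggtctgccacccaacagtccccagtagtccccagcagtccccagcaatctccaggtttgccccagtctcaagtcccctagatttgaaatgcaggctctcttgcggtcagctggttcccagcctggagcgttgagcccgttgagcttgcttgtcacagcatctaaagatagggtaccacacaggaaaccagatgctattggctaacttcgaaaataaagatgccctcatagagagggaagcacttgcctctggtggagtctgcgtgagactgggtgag
Cmklr1 promoter, chr5:113643554-113643853 (- strand): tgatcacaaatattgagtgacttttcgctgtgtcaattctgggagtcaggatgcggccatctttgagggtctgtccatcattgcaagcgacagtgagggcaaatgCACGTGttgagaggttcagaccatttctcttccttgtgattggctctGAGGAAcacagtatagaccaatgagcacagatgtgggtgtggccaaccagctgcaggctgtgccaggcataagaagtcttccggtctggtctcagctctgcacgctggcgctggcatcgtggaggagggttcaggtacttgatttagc

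All 7 receptor genes had a promoter entry, 9 in all because Ccrl2 has 3 annotated starts. GAGGAA occurred in 3 of the 7 genes, Ccr1, Cmklr1 and Cxcr2, and in 28.3% of 32851 promoter windows of this length. ACGTG occurred in 2, Ccrl2 and Cmklr1, and in 19.6% of windows; in Cmklr1 both strands match, over the overlapping letters of 1 palindrome. TTGCNNAA, a form of the C/EBP site, and TGANTCA, the AP-1 site, were found in 10.8% and 7.81% of windows and in 0 of the 7 receptor genes. These matches describe letters only. The separated receptors Ccrl2 and Cx3cr1 shared none of the 4 motifs.

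Ccr2, the receptor by which classical monocytes respond to Ccl2 and Ccl7, was measured by 2 probes that differed in whether they were detected. The first (ILMN_1222795), annotated to a cDNA record, gave raw intensities of 1413, 1458 and 1600 in controls A, B and C. Mice D, E and F read 958, 472 and 594. The second (ILMN_1226563), annotated to the RefSeq transcript, gave 55.8 to 96.7 over the 6 mice and was detected on no array. The level of Ccr2 therefore rests on the first probe. Its normalized log2 intensity was 9.92, 10.00 and 10.23 in control mice and 10.02, 9.89 and 9.52 in MEC1 mice, and the groups overlapped. The log2 change was -0.23 ± 0.19 (SE), with a 95% interval from -0.66 to 0.19 (limma adjusted p = 0.512). Falls larger than 0.66 on the log2 scale thus lay outside the interval, and smaller ones did not. The change was -0.78 under median scaling, -0.14 without control mouse C, and -0.09 when mouse F was left out, and equally when chip position entered the fit, none of which passed. Of 8 markers of classical monocytes 6 were tested and summed to 46157 to 54176 in control mice and 43222 to 51816 in MEC1 mice. Of the 6, 4 had a log2 change below 0 and 2 above, with a median of -0.20. Fn1, the fibronectin gene, gave -1.36 ± 0.35 (SE; limma adjusted p = 0.122) with every MEC1 mouse below every control mouse. Its other tested probes gave -1.26 and, with overlapping groups, -0.44. The 1 tested probe of Vcan, the versican gene, was detected in the 3 MEC1 mice and in no control mouse, so it was tested through the MEC1 mice alone. Its raw signals were 150, 127 and 125 in controls A, B and C and 109, 108 and 127 in mice D, E and F. The lowest detected raw signal was 140 to 172 on control arrays and 84.6 to 109 on MEC1 arrays. Its normalized log2 change was 1.02 (limma adjusted p = 0.106), at signals too near background to be read as a level. The other Vcan probes were not tested. Hp, which encodes haptoglobin, was the 1 gene called, with a log2 change of 0.43 ± 0.09 (SE; limma adjusted p = 0.0488) at the probe standing for it, while its other probes gave 0.08 and 0.11. The call of Hp was kept under 3 of 15 alternatives (adjusted p from 0.0278 to 0.262).

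Ccr1 and Cmklr1 were each measured by 1 probe, and neither was detected in any mouse. Ccr1, which binds Ccl3, Ccl6, Ccl7 and Ccl9 among other CC chemokines, gave raw intensities of 73.4 to 86.5 in control mice and 56.4 to 68.4 in MEC1 mice. Cmklr1, the signalling receptor for chemerin, gave 75.3 to 84.5 and 54.8 to 68.2. The lowest raw intensity of a detected probe was 140 to 172 on the control arrays and 84.6 to 109 on the MEC1 arrays, above both receptors throughout. Signal at this height gives no level and no fold change, and it does not show that the transcripts were absent.

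Cxcr4 and Cxcr2 are the receptors of marrow retention and of neutrophil release. Cxcr4 was detected in every mouse, at raw intensities of 3197, 2934 and 3771 in controls A, B and C. Mice D, E and F read 1986, 836 and 1302. Its normalized log2 intensity was 11.18, 11.04 and 11.54 in the control mice and 11.11, 10.77 and 10.72 in the MEC1 mice. Mouse D lay above control mouse B, so the groups overlapped. The log2 change was -0.38 ± 0.18 (SE), with a 95% interval from -0.79 to 0.03 (limma adjusted p = 0.274). It was -0.89 under median scaling and -0.24 without control mouse C, and passed under neither.

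Cxcr2, which binds the neutrophil-attracting chemokines Cxcl1 and Cxcl2, was close to background. Its tested probe (ILMN_1223834) was detected in control mice A and B and in MEC1 mouse D, at raw intensities of 183, 197 and 113, and not in mice C, E and F, at 125, 70.7 and 106. The other probe (ILMN_2737157) was detected in no mouse. Normalized log2 intensity of the tested probe was 5.92, 6.45 and 5.30 in control mice and 6.11, 5.13 and 5.68 in MEC1 mice, and the groups overlapped. The log2 change was -0.25 ± 0.36 (SE), with a 95% interval from -1.06 to 0.56 (limma adjusted p = 0.721), and it was 0.03 without control mouse B, 0.01 without MEC1 mouse E, -0.53 and -0.50 when control C or mouse D was left out, and 0.53 with chip position as a covariate. The genes listed as neutrophil markers were bright in both groups. Of the 13 tested, 7 had a log2 change above 0 and 6 below, with a median of 0.04. S100a8, a calgranulin of neutrophils, had a log2 intensity of 14.88 ± 0.06 in control mice and 15.15 ± 0.06 in MEC1 mice (SD, n = 3 each), a difference that did not pass (limma adjusted p = 0.105). Lcn2, a granule protein, gave 0.70 (limma adjusted p = 0.104). Cd177, a neutrophil surface protein added here after its value was seen, gave -0.65 (limma adjusted p = 0.114) with every MEC1 mouse below every control mouse. It was the only 1 of the 13 separated in that direction, as were 13.3% of tested probes. In 4 of the 13, among them S100a8, Lcn2 and Prtn3, every MEC1 mouse lay above every control mouse. The share of all tested probes separated upward was not counted, so this count has no background beside it. The 1 marker called was Prtn3, a primary granule protease, with a log2 change of 0.39 ± 0.08 (SE; limma adjusted p = 0.0483), a call kept under 3 of 15 alternatives (adjusted p from 0.0325 to 0.259).

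Among the ligands of these receptors, both called genes are ligands of Ccr1 and both fell, 2 of 9 tested against 0.792% of tested genes called lower. The list holds 16 ligands, of which 15 had a named probe. Ccl6 had a log2 intensity of 10.38, 10.57 and 10.49 in mice A, B and C and of 9.20, 9.12 and 8.68 in mice D, E and F, a log2 change of -1.48 ± 0.19 (SE; limma adjusted p = 0.0139). Ccl9 had 13.04, 13.34 and 13.47 in control mice and 12.08, 12.39 and 12.03 in MEC1 mice, a log2 change of -1.12 ± 0.15 (SE; limma adjusted p = 0.0150). For both, every MEC1 mouse lay below every control mouse, while their receptor Ccr1 was at background in all 6 mice. Ccl6 passed under 11 of 15 alternatives and Ccl9 under 10. Without control mouse A, B or C the adjusted p was 0.105, 0.109 and 0.105 for Ccl6 and 0.0790, 0.109 and 0.107 for Ccl9, and with chip position as a covariate it was 0.267 and 0.207.

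The ligand of Ccr2 with the smallest p was Ccl2, at -0.54 ± 0.23 (SE; limma adjusted p = 0.233). Rarres2, the chemerin gene, and Cxcl12, the ligand of Cxcr4, were picked once their values were known. They were detected in every mouse, with log2 changes of 0.29 ± 0.27 and 0.30 ± 0.35 (SE; limma adjusted p = 0.559 and 0.655) and 95% intervals from -0.31 to 0.90 and from -0.48 to 1.08. Of the chemerin axis, then, Rarres2 and Ccrl2 were detected and Cmklr1 was not. The ligands had a median log2 change of -0.53, with 7 of the 9 below 0, as had 50.5% of tested genes.

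**Figure D2:**
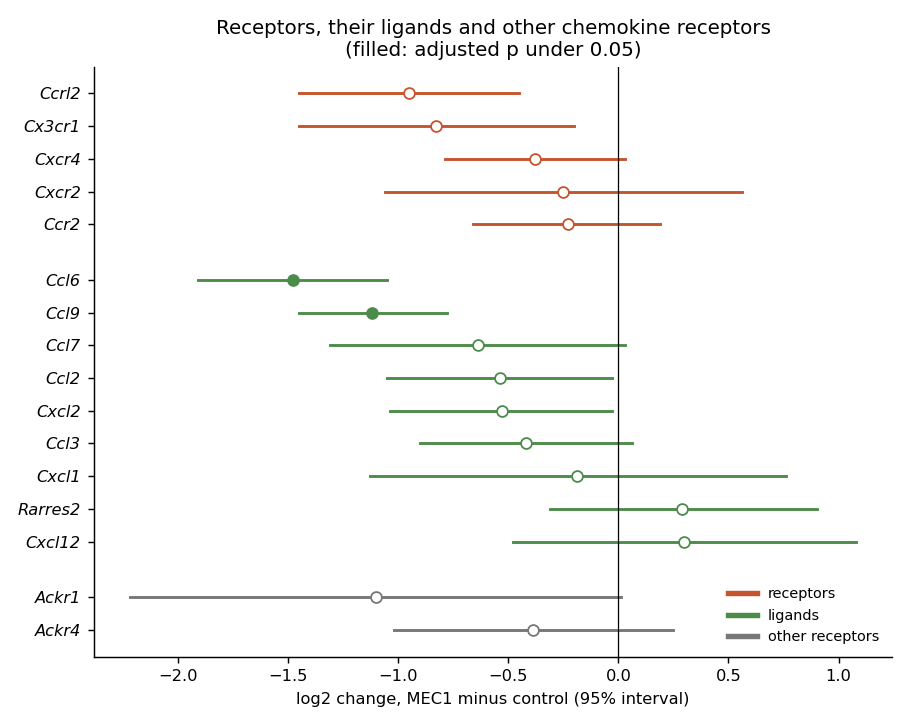
Log2 change, MEC1 minus control (horizontal axis), with its 95% interval, for the 5 tested receptors, the 9 tested ligands and the 2 other tested chemokine receptors (vertical axis). Filled points passed the test at an adjusted p under 0.05, which of the 16 genes only Ccl6 and Ccl9 did.

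Of 19 other chemokine receptor genes 17 had a named probe, 12 of these were detected on no array and 2 could be tested. Both are atypical receptors that bind chemokines without steering migration. Ackr1, which is also known from erythroid cells, had a log2 intensity of 7.95, 8.67 and 9.25 in control mice and 7.76, 6.54 and 8.24 in MEC1 mice, with a log2 change of -1.10 ± 0.48 (SE; limma adjusted p = 0.256). Mouse E was the lowest and the groups overlapped. Ackr4 gave -0.39 ± 0.28 (SE; adjusted p = 0.459) at 1 of its 4 probes, the other 3 being detected nowhere.

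Downstream of the receptors 0 of 36 tested genes were called in either direction, against 1.74% of tested genes. Of 21 genes of G protein and arrestin signalling 17 were tested, 8 with a log2 change below 0 and 9 above, with a median of 0.04. In 7 of the 17 every MEC1 mouse lay below every control mouse, as in 13.3% of tested probes. In 2 every MEC1 mouse lay above every control mouse, a direction for which the share of all tested probes was not counted. The 3 with the smallest p were Rgs2 and Rgs1, which shorten G protein signals, and Gnaq, a G protein alpha subunit. Rgs2 had a log2 intensity of 8.91, 9.10 and 8.94 in control mice and 8.27, 7.47 and 7.56 in MEC1 mice, and its log2 change was -1.22 ± 0.26 (SE; limma adjusted p = 0.0585), with -0.92 at its other tested probe. Rgs1 gave -0.91 ± 0.24 (SE; adjusted p = 0.105), and its other tested probes gave -1.86 and -0.93. Gnaq gave -0.59 ± 0.18 (SE; adjusted p = 0.144), with -0.15 and -0.27 at other tested probes.

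The list of migration effectors, the kinases, exchange factors and cytoskeletal proteins that move the cell, held 22 genes, of which 19 were tested. Their median log2 change was 0.11, with 13 above 0 and 6 below. Fgr, a Src-family kinase, gave 0.61 ± 0.19, Fermt3, which activates integrins, 0.68 ± 0.22, and the kinase subunit gene Pik3cg -0.37 ± 0.16 (SE; limma adjusted p = 0.142, 0.150 and 0.257). The other tested probe of Pik3cg gave -0.04.

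**Figure D3:**
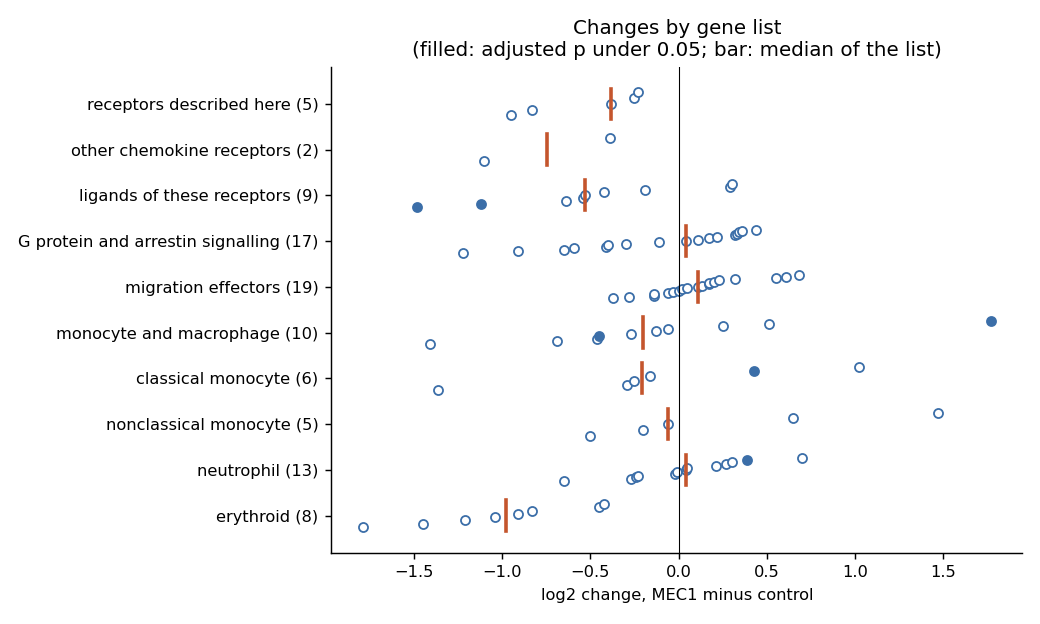
Log2 change, MEC1 minus control (horizontal axis), of each tested gene in the receptor set, the other chemokine system lists and marker lists (vertical axis, number of tested genes in brackets). Filled points had an adjusted p under 0.05 and bars are list medians; the receptor median was -0.38, the ligand median -0.53 and the erythroid median -0.98, while both downstream lists had medians above 0.

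The receptors differed from each other in how the MEC1 mice were ordered. Among the 4 receptors detected in every mouse, mouse F was lowest of the 6 for Cx3cr1, Ccr2 and Cxcr4, mouse E was lowest for Ccrl2, and mouse C was highest for each. The median deviation of these 4 from the control mean was -0.13, -0.20 and 0.30 on the log2 scale for controls A, B and C. It was -0.20, -0.66 and -0.59 for mice D, E and F. By this median mouse D was at the level of the lowest control mouse, and mice E and F lay below the controls. For Ccrl2 alone mouse D (10.40) was close to mouse E (10.38) and below the lowest control mouse (11.22). Cxcr2 was left out here, since it was not detected in mice C, E and F.

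The genes whose values over the 6 mice lay nearest to those of each receptor were sought among genes with a range of at least 1 on the log2 scale, by the root mean square difference of the values after subtracting each gene's mean. For Ccrl2 these were Mier1 and Rnf167, at 0.131 and 0.155, for Cx3cr1 Fam234a and Rspo3, at 0.127 and 0.143, and for Cxcr4 Echdc3 and Map1lc3a, at 0.089 and 0.096. For Ccr2 they were Map1lc3a and Irak2, at 0.141 and 0.154, and for Cxcr2 Egr3 and Pgrmc1, at 0.135 and 0.146. None was another chemokine receptor, but Ccr2 and Cxcr4, with ranges of 0.71 and 0.82, were not candidates and could not be returned. The genes named are the nearest of 3436 or 3437 candidate genes over 6 arrays and are given as a description.

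**Figure D4:**
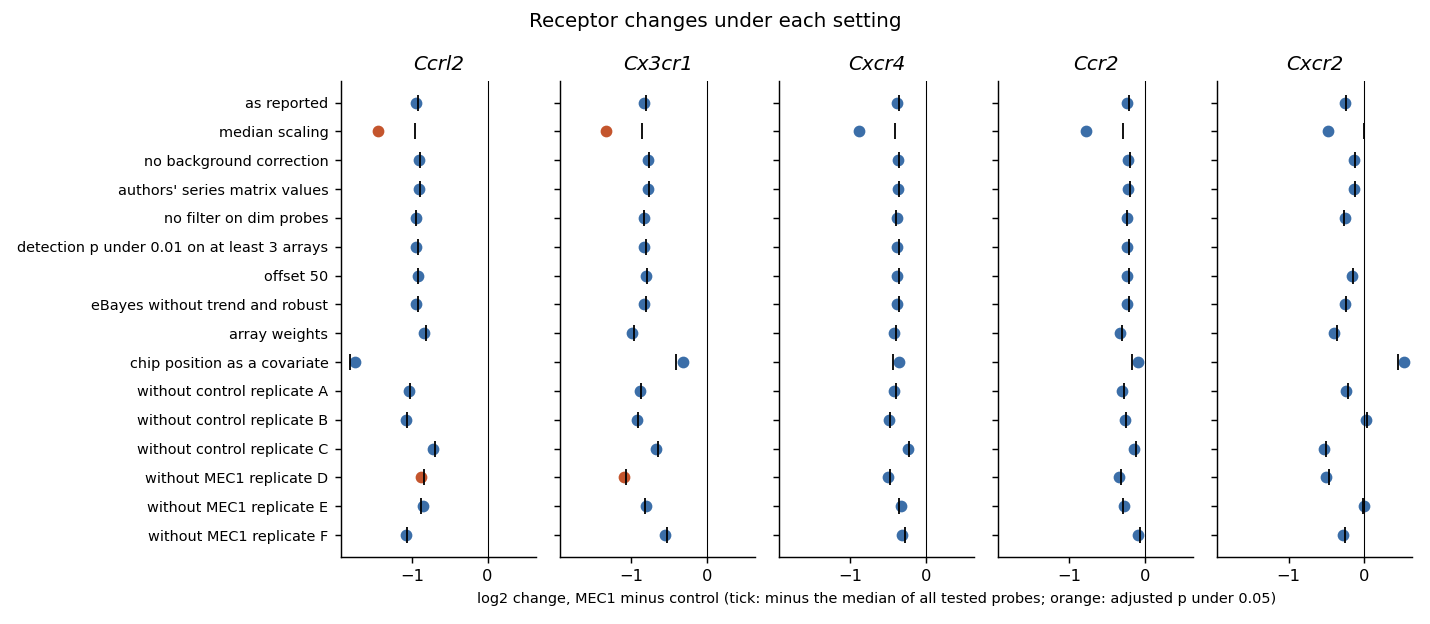
Log2 change, MEC1 minus control (horizontal axis), of the 5 tested receptors under each setting (vertical axis); short ticks show the change minus the median of all tested probes, and orange points had an adjusted p under 0.05. Ccrl2, Cx3cr1, Cxcr4 and Ccr2 stayed below 0 under every setting, with calls for Ccrl2 and Cx3cr1 under median scaling and without MEC1 mouse D.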

How the data were processed

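Total RNA of bead-purified marrow monocytes and macrophages was converted to biotinylated cRNA and read in 1 colour, per the labels' protocols. Per the file headers, the table that the authors deposited without normalization gives the intensity of every probe on every array and its detection p-value, and a second deposited table of processed intensity values served as an alternative. GenomeStudio is named in the submitters' processing notes, and its version is not given in the sources used here.

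Intensities were background-corrected and quantile-normalized on the log2 scale with neqc of limma 3.58.1 in R 4.3.3, with an offset of 16, which shrinks changes of dim probes. Probes detected (p-value under 0.05) on at least 3 of 6 arrays were tested by lmFit and eBayes with trend and robust variance, two-sided, with Benjamini-Hochberg adjustment over all 16460. The steps were tested on simulated arrays.

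Probe names came from the platform annotation, updated by Entrez ID to RefSeq symbols: 34885 probes had 1 gene, 18 several and 10378 none named here. The tested probe with the highest mean stood for a gene. Named genes were the receptors, up to 3 genes a list (those of smallest p) and the 2 genes nearest in profile to each receptor, except where said otherwise. Marker genes of the remaining cell type lists are given as sums or left out, and their bearing on the receptors was not tested. Members and lists were chosen with earlier results of these data known. Mice were not paired, since no letter is shared between groups. The p-values set the difference between groups against the spread between mice, moderated over all tested probes. The number of arrays limits the precision. Probe positions in the genome were not analysed here.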

Additional observations from a re-analysis of the deposited data

How the results depend on the processing

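Over 15 alternatives the log2 changes of Ccrl2, Cx3cr1, Cxcr4 and Ccr2 stayed below 0, over ranges of -1.76 to -0.72, -1.34 to -0.32, -0.89 to -0.24 and -0.78 to -0.09, and Cxcr4 and Ccr2 were called under none. Median scaling called 2111 probes, 2 of them receptors, Ccrl2 at -1.45 and Cx3cr1 at -1.34, with a receptor median of -0.89; the median of all tested probes was then -0.48, and relative to it Ccrl2 was at -0.97 and Cx3cr1 at -0.86. With chip position as a covariate 0 probes were called by limma (2397 at an unadjusted p under 0.05), Cxcr2 turned to 0.53, Ccrl2 was -1.76 (adjusted p = 0.204) and Cx3cr1 -0.32 (adjusted p = 0.817). Called probes numbered 95 without trend and robust variance and 581 with array weights, against 253 as reported, with 0 receptors among them in each case. Leaving out 1 mouse in turn gave 5 to 1210 called probes, 0 to 2 called receptors, and log2 changes of -1.09 to -0.72 for Ccrl2, -1.10 to -0.55 for Cx3cr1 and -0.53 to 0.03 for Cxcr2, which turned positive without control mouse B (0.03) and without MEC1 mouse E (0.01). Among these, the calls of Ccrl2 and Cx3cr1 both came without MEC1 mouse D, the fit that gave the 1210 called probes. In that fit 3.13% of all tested probes were called lower, against 0.668% as reported, and the cause was not tested. For Ccl6, Ccl9, Hp, Prtn3, Fcgr1 and Lyz2 the same alternatives were chosen after seeing the data. Cxcr2 could not be tested at a detection p under 0.01, since too few arrays reached it. The 4 undetected probes had adjusted p-values of 0.588 to 0.969 when no filter was set, at signals too near background to be read.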
